A study of Mus musculus with 20 samples.

Results

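The genes described here are 9 killer lectin-like receptor genes, Klrk1, Klrd1, Klrc1, Klrc2, Klre1, Klri2, Klrb1c, Klrb1f and Klrg1. They were chosen by name from the 49671 genes of the count table, with earlier results of these data known. Their RNA was measured in 20 libraries of mouse T cells, 5 in each of 4 groups: CD8 cells at week 1 and week 4 of culture and CD4 cells at week 1 and week 3. All 4 groups came from spleen and inguinal lymph node T cells activated on plate-bound anti-CD3 and anti-CD28 in 1 ng/mL IL-2. Expansion followed in medium with IL-15 at 50 ng/mL and IL-7 at 10 ng/mL. It lasted 4 days in both week 1 groups, 18 days in the CD4 week 3 group and 25 days in the CD8 week 4 group, and every library was made from polyA RNA of cells sorted as CD44+ CD62L+. Per the labels the cells were either polyclonal cells of albino B6 mice or transgenic cells of Marilyn-BLITC and MataHari-BLITC mice. The labels do not say which library came from which source, nor from which animal or culture, so each p-value is set against the spread of these libraries alone, which may be technical. Libraries are numbered 1 to 5 within a group as names only.

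Killer lectin-like receptors are membrane proteins of the C-type lectin superfamily, best known from natural killer (NK) cells and also carried by activated and memory CD8 T cells. They bind class I and class I-like molecules, cadherins or other lectins, and either recruit tyrosine kinases through adaptor proteins or recruit phosphatases through inhibitory motifs. Klrk1 encodes NKG2D, an activating receptor that signals through the adaptor DAP10. Klrd1 encodes CD94, which pairs with NKG2A (Klrc1, inhibitory) or NKG2C (Klrc2, activating) to bind Qa-1. Klre1 and Klri2 encode receptors that pair with each other or with relatives, Klrb1c encodes NK1.1, Klrb1f encodes another receptor of the NKR-P1 group, and Klrg1 encodes an inhibitory receptor for cadherins that marks short-lived effector cells.

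All 9 genes lie on chromosome 6 (mm10). Klrg1 stands alone at chr6:122270596-122282882, and the other 8 lie within a cluster of lectin genes that begins 6.33 megabases further on. In order along the chromosome these are Klrb1c (chr6:128778485-128789215), Klrb1f (chr6:129045901-129057464), Klre1 (chr6:129577905-129585827), Klrd1 (chr6:129591782-129598775), Klrk1 (chr6:129610323-129623864), Klrc2 (chr6:129647496-129660689), Klrc1 (chr6:129666015-129678973) and Klri2 (chr6:129729041-129740484). Klrc1 and Klrc2 are close paralogs. In GENCODE M21 transcripts, 38.6% of the distinct 50-base stretches of Klrc1 also occur in another gene, and 36.6% occur in Klrc2. The share was 16.3% for Klrc2 and 17% for Klrb1c, whose exons also overlap those of Gm44511 on the same strand over 413 of 2961 bases. It was 0% for Klrk1, Klrd1, Klrb1f and Klrg1, 0.28% for Klre1 and 2.77% for Klri2. A read that lies wholly within such a stretch can come from either gene, so the levels of Klrc1, Klrc2 and Klrb1c are less certain than those of the other members. The longest stretch that the coding sequences of Klrc1 and Klrc2 share is shown because it marks where the 2 cannot be told apart. It holds 103 bases and ends at the stop codon of both (bases 633 to 735 of Klrc1 and 615 to 717 of Klrc2).
Klrc1 and Klrc2, shared coding stretch: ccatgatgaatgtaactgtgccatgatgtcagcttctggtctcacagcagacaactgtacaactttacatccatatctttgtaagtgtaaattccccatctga

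The RefSeq promoter table (GRCm38.p6) matched 6 of the 9 members. The 250 bases before the start of 3 of them, Klrk1, Klrc1 and Klrb1f, hold no annotated exon and are shown because the first 2 differed strongly between CD8 and CD4 cells and Klrb1f the least. Both strands were searched for the core of the RUNX site (TGTGGT), of the T-box site (AGGTGT) and of the STAT site (TTCNNNGAA). These occur in 14%, 11.9% and 7.04% of all 32536 windows of this length in the table. Matches are in capitals, and sequences run 5′ to 3′ on the gene's strand. Klrk1 held 1 RUNX match, starting 129 bases before the gene's start, and Klrc1 held 1, starting 87 bases before it on the opposite strand. Klrb1f held none of the 3 motifs in this window.
Klrk1, chr6:129623865-129624114, minus strand: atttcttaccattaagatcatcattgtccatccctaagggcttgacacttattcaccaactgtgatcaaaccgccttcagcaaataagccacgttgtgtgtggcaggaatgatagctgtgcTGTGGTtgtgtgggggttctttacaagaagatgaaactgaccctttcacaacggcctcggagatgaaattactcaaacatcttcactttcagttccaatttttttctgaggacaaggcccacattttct
Klrc1, chr6:129678974-129679223, minus strand: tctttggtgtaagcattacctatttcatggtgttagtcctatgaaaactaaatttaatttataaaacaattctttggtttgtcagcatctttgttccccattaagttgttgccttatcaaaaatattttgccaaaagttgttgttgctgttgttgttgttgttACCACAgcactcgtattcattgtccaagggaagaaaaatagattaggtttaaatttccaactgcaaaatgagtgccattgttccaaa
Klrb1f, chr6:129045651-129045900, plus strand: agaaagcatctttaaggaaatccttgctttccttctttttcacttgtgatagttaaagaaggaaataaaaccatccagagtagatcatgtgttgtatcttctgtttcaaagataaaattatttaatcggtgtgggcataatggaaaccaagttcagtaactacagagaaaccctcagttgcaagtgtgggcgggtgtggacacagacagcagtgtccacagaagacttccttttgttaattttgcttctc

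The libraries held 13264302 to 28342449 counts assigned to genes. CD8 libraries had Cd8a at 644.2 to 1577 CPM (counts scaled to a common library size, with TMM) and Cd4 at 0 to 0.57 CPM, while CD4 libraries had Cd4 at 519.9 to 902.6 CPM and Cd8a at 0.05 to 17.5 CPM. CD8 week 4 libraries 1 and 2 stood apart from the other 3: they had the lowest Cd8a (741.5 and 644.2, against 1173 to 1577 CPM), the lowest Cd8b1 and the highest Itgax (36.6 and 37.5, against 2.28 to 7.01 CPM), the gene of CD11c. Of the CD4 libraries, week 3 library 1 had the most Cd8a (17.5 CPM) and Cd8b1 (13.3 CPM). The bulk values cannot tell fewer cells that carry a receptor from less RNA per cell.

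**Figure D1:**
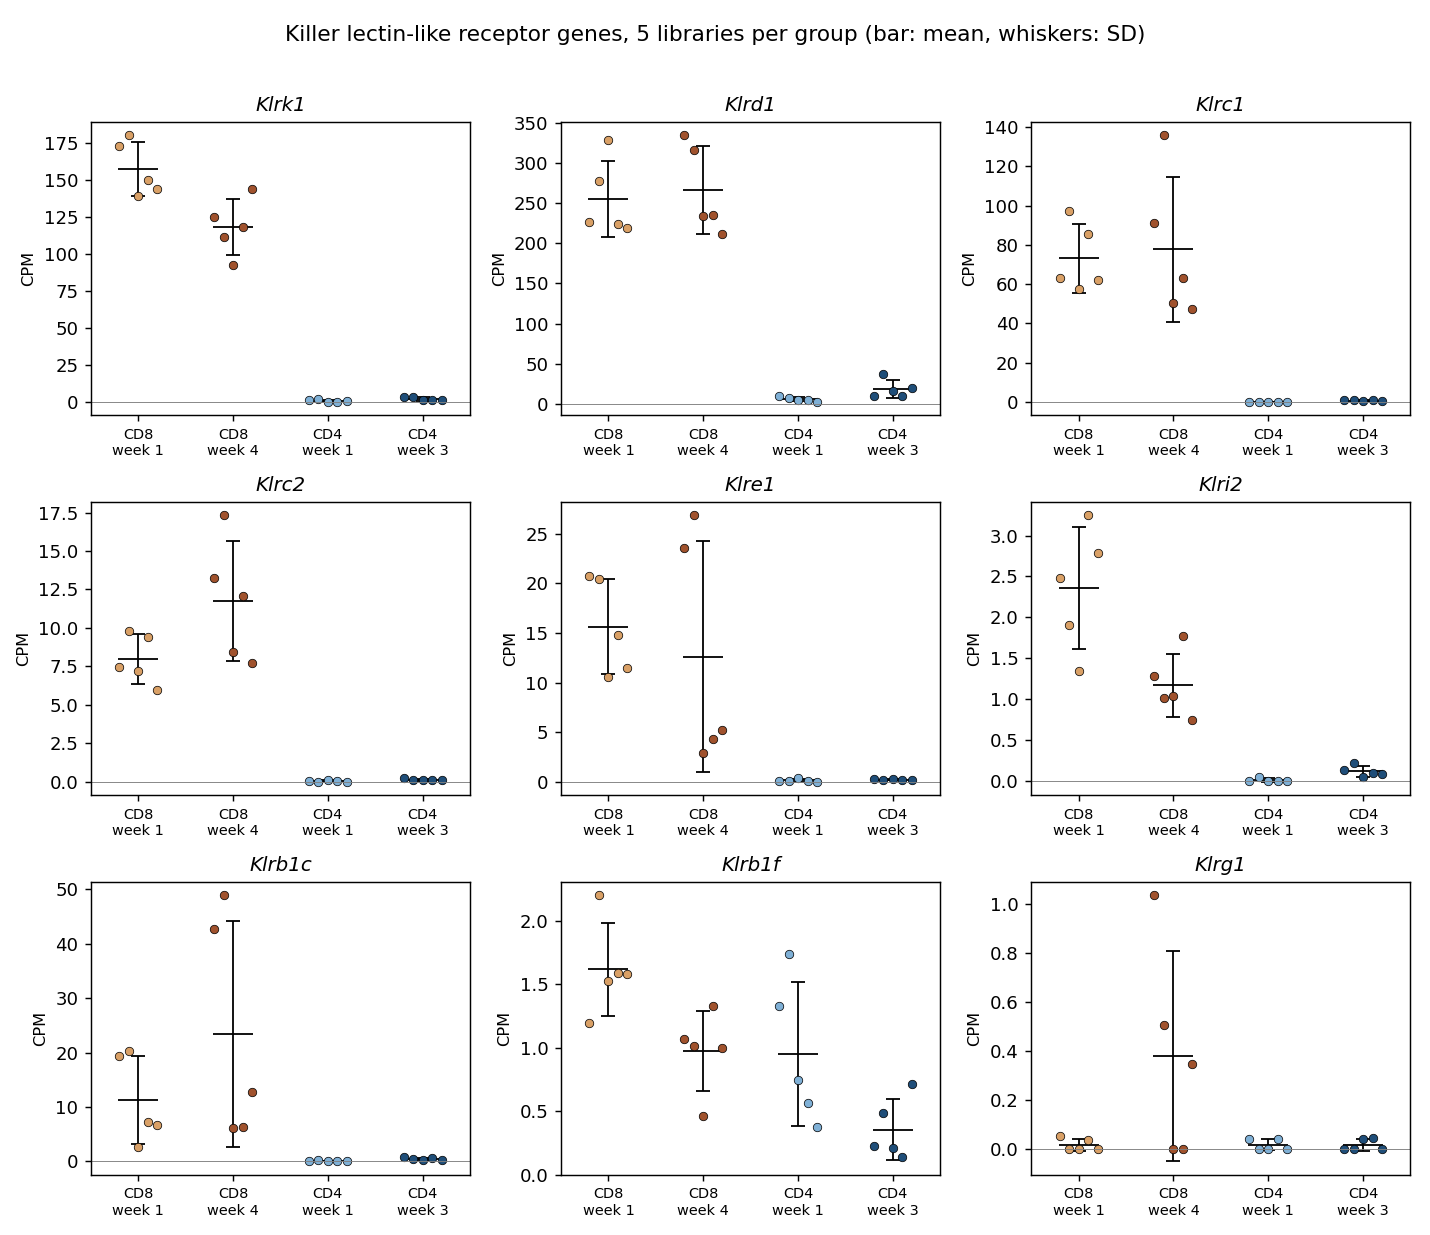
Each panel plots 1 gene in CPM on a linear axis by group, with a point per library, a bar for the mean of 5 libraries and whiskers for the SD. Apart from Klrb1f and Klrg1, the CD4 libraries lie below every CD8 library, and CD8 week 4 libraries 1 and 2, the first points of that group, are the highest for Klrd1, Klrc1, Klrc2, Klre1 and Klrb1c.

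Per kilobase of merged exon, CD94 RNA was the most abundant of the 9 in every group. At week 1 in CD8 cells the mean level was 199.1 ± 36.9 CPM per kilobase for Klrd1 (SD, n = 5), 36.8 ± 8.75 for Klrc1, 21.9 ± 2.54 for Klrk1, 4.47 ± 1.38 for Klre1, 3.82 ± 2.71 for Klrb1c, 1.37 ± 0.278 for Klrc2, 0.799 ± 0.181 for Klrb1f and 0.602 ± 0.19 for Klri2. Klrd1, Klrc1, Klrk1 and Klre1 stood in that order without overlap of their libraries, while each gene from Klre1 down to Klri2 overlapped the next. Klrg1, at 0.0123 ± 0.0174, came last. In CD8 cells at week 4 Klrd1 (208.0 ± 43.1) and Klrc1 (39.2 ± 18.6) again led, and Klrk1 (16.5 ± 2.60) overlapped Klrb1c (7.89 ± 7.02). In CD4 cells Klrd1 also led, at 4.66 ± 2.07 CPM per kilobase at week 1 and 14.6 ± 8.70 at week 3, with no overlap with the next gene. The next genes were Klrb1f (0.47 ± 0.28) at week 1 and Klrc1 (0.346 ± 0.087) at week 3, and each overlapped Klrk1.

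The first question was how CD8 and CD4 cells differ at each stage. At week 1, 7 of the 8 tested members were higher in CD8 cells and 0 were lower (adjusted p under 0.05, Benjamini-Hochberg, in edgeR's quasi-likelihood test), where 19.1% of all 13290 tested genes were higher and 19% lower. In long-term culture 8 of 8 were higher and 0 lower, where 17.7% of all tested genes were higher and 15% lower. The median log2 difference of the 8 genes was 7.37 at week 1 and 5.76 in long-term culture, against -0.01 and 0.01 over all tested genes. Klrc2, Klre1, Klri2 and Klrb1c passed the filter on low counts only through the CD8 libraries. They could hardly come out lower in CD8 cells, so these counts and medians were partly set by the filter. The members were also chosen with earlier results of these data known, so the counts are no independent test. The CD8 and CD4 long-term groups differ in culture time as well as in cell type (25 and 18 days), and these cannot be told apart in the second comparison. The sample titles number all CD4 samples in a range apart from the CD8 samples. In both comparisons cell type cannot be told apart from anything that goes with this numbering. The same holds for the difference of the culture changes tested below.

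Klrk1, the NKG2D gene, stood at 172.9, 180.3, 139.3, 149.8 and 144.0 CPM in CD8 week 1 libraries 1 to 5 and at 1.12, 1.79, 0.30, 0.282 and 0.416 CPM in the CD4 week 1 libraries. Every CD8 library was thus far above every CD4 library (log2 difference 7.65, SE 0.434, edgeR adjusted p 6.02e-10). The inhibitory chain gene Klrc1 differed most of the members, at 73.1 ± 17.4 CPM in CD8 and 0.125 ± 0.0621 in CD4 cells at week 1 (9.15, SE 0.401, edgeR adjusted p 1.52e-11), and its activating relative Klrc2 stood at 7.97 ± 1.62 and 0.0363 ± 0.041 CPM. Klrd1 differed least among the 7, at 255.1 ± 47.3 and 5.96 ± 2.66 CPM (5.42, SE 0.386, edgeR adjusted p 1.25e-08). The remaining log2 differences at week 1 were 7.01 for Klre1 and 7.39 for Klrb1c. Klri2 had 232 counts in the CD8 and 1 count in the CD4 week 1 libraries, a ratio of 279.7 with a 95% interval of 49.7 to 11094 that covers counting error only.

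Klrb1f was the exception. Its week 1 libraries read 1.19, 2.20, 1.52, 1.59 and 1.58 CPM in CD8 and 1.33, 1.74, 0.749, 0.564 and 0.375 CPM in CD4 cells. The ranges overlapped, and the difference did not pass (log2 0.77, SE 0.405, edgeR adjusted p 0.143). It passed without CD4 week 1 library 2 (1.09, edgeR adjusted p 0.043). In long-term culture Klrb1f was higher in CD8 cells (0.975 ± 0.314 against 0.355 ± 0.241 CPM, log2 1.44, SE 0.441, edgeR adjusted p 0.0173), and this call was lost without CD8 week 4 libraries 1 and 2 (1.38, edgeR adjusted p 0.0736).

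In the long-term groups the gap between CD8 and CD4 cells was 3.83 on the log2 scale for Klrd1, 5.87 for Klrk1, 6.81 for Klrc1, 6.52 for Klrc2, 5.99 for Klre1, 5.66 for Klrb1c and 3.30 for Klri2. All 7 passed the edgeR test, with adjusted p from 6.79e-11 for Klrc1 to 1.3e-05 for Klrb1c.

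The next question was what prolonged culture changed in CD8 cells. Between week 1 and week 4, 0 of the 8 tested members rose and 1 fell, Klri2, where 17.1% of all tested genes rose and 16.4% fell. The median log2 change of the 8 was -0.13, against 0.03 over all tested genes. Thus NKG2D, CD94 and NKG2A transcripts were found at both times at levels that did not differ beyond the test's threshold, and a smaller change was not detectable at this spread.

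Klrd1 read 226.6, 278.0, 328.1, 224.2 and 218.6 CPM at week 1 and 334.5, 316.5, 234.6, 235.4 and 211.1 CPM at week 4. The libraries of both times covered the same range (log2 change 0.06, SE 0.315, edgeR adjusted p 0.898). Klrc1 was likewise spread over both times, at 73.1 ± 17.4 and 77.7 ± 36.8 CPM (0.09, SE 0.243, edgeR adjusted p 0.81). Its direction turned without CD8 week 4 libraries 1 and 2, its highest of that time (-0.44, edgeR adjusted p 0.101). The change was 0.35 within libraries 1 to 3 and -0.42 within libraries 4 and 5, where neither passed. Klrc2 stood at 7.97 ± 1.62 and 11.8 ± 3.9 CPM (0.56, SE 0.261, edgeR adjusted p 0.107). Klrk1 read 125.3, 111.7, 92.6, 118.1 and 143.7 CPM at week 4, lower than the week 1 values given above in all libraries but library 5, which reached into their range. Its change of -0.41 (SE 0.305, edgeR adjusted p 0.316) did not pass in the fit over all 20 libraries. It passed when the fit held the CD8 libraries alone (-0.43, edgeR adjusted p 0.018) and with limma-voom (-0.42, adjusted p 0.0359). The within-range values, by the 2 ranges of library numbers in the titles of the CD8 samples, were -0.58 (libraries 1 to 3) and -0.17 (libraries 4 and 5).

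Klri2, a low-level partner gene of Klre1, read 2.49, 1.91, 1.35, 3.25 and 2.78 CPM at week 1 and 1.29, 1.01, 1.03, 1.77 and 0.74 CPM at week 4, with overlapping ranges. It fell by 1.01 on the log2 scale (SE 0.32, edgeR adjusted p 0.022). The call was lost without CD8 week 1 library 4 (-0.86, edgeR adjusted p 0.0709) or 5 (-0.94, edgeR adjusted p 0.0514), without CD8 week 4 library 5 (-0.88, edgeR adjusted p 0.0584) and without CD8 week 4 libraries 1 and 2 (-0.99, edgeR adjusted p 0.064). Within libraries 1 to 3 the change was -0.78 and within libraries 4 and 5 it was -1.27, and neither passed.

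**Figure D2:**
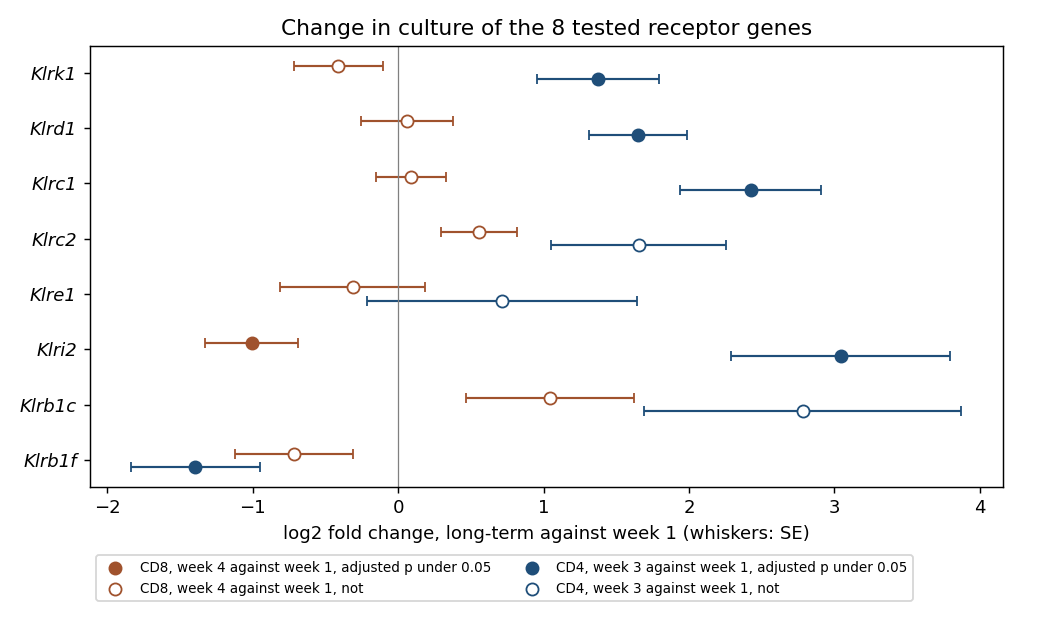
Log2 fold changes (horizontal axis) of the 8 tested receptor genes between week 1 and the long-term groups, brown for CD8 and blue for CD4 cells, with whiskers for the SE and filled points for adjusted p under 0.05. In CD8 cells Klri2 alone is filled, on the lower side, and in CD4 cells Klrk1, Klrd1, Klrc1 and Klri2 are filled on the higher side and Klrb1f on the lower.

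Klre1 and Klrb1c differed among the CD8 week 4 libraries more than between times. Klre1 read 23.6 and 26.9 CPM in week 4 libraries 1 and 2 and 2.85, 4.34 and 5.22 CPM in libraries 3 to 5, while its week 1 libraries read 20.8, 20.4, 10.6, 14.8 and 11.5 CPM. The week 4 values thus lay in 2 sets, one above and one below the week 1 range. Over all 5 libraries the log2 change was -0.31 (SE 0.497, edgeR adjusted p 0.657), and without libraries 1 and 2 it was -1.91 (edgeR adjusted p 0.00206). These libraries were the highest of week 4 and were left out after their values were seen. The lower value follows from that choice, and its p is no test of a fall. Within libraries 1 to 3 of each time the change was 0.04 (edgeR adjusted p 0.975) and within libraries 4 and 5 it was -1.47 (edgeR adjusted p 0.0589). Klrb1c read 42.7 and 49.0 CPM in week 4 libraries 1 and 2 and 6.21, 6.27 and 12.7 CPM in libraries 3 to 5. Its week 1 libraries 1 and 2 were also the highest of their group, at 19.4 and 20.3 CPM against 2.69, 7.28 and 6.77 CPM. The change of 1.05 (SE 0.578, edgeR adjusted p 0.172) turned to -0.43 (edgeR adjusted p 0.568) without CD8 week 4 libraries 1 and 2, its highest of that time. The highest week 4 library exceeded the lowest 9.45-fold for Klre1 and 7.89-fold for Klrb1c, against a median of 1.37-fold over 11475 tested genes with a mean of at least 1 CPM. The same ratio was 2.86 for Klrc1, 2.39 for Klri2, 2.25 for Klrc2, 1.58 for Klrd1 and 1.55 for Klrk1. Klrd1, Klrc1 and Klrc2 were also highest in week 4 libraries 1 and 2, at 334.5 and 316.5 CPM against 211.1 to 235.4 CPM for Klrd1, at 91.3 and 135.8 CPM against 47.5 to 63.3 CPM for Klrc1 and at 13.2 and 17.3 CPM against 7.70 to 12.1 CPM for Klrc2.

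The libraries with high Klre1 and Klrb1c also held the low Cd8a and Cd8b1 and the high Itgax given above, and Itgax was highest in week 1 libraries 1 and 2 too (20.1 and 25.7, against 1.52 to 2.72 CPM). Ncr1, a defining NK cell gene, read 3.64, 2.03, 0, 0.121 and 2.65 CPM in CD8 week 4 libraries 1 to 5. The 9 listed NK markers, 4 of which (Itga2 and the Ly49 genes Klra1, Klra3 and Klra7) were at 1 CPM or more on average at week 1, summed to 24.7 to 37.2 CPM in CD8 week 1 and 8.18 to 28.6 CPM in CD8 week 4 libraries. At week 4, 8 of the 9 had a count and Klra4 was at 0. Trdc, the constant segment of the T cell receptor delta chain, read 13.3, 12.3, 4.86, 5.79 and 13.97 CPM in CD8 week 4 libraries 1 to 5. It was thus highest in the 3 libraries with Ncr1 above 2 CPM. Of the other gamma-delta T cell markers, Tcrg-C1 read 21.5, 19.4, 49.0, 39.3 and 41.2 CPM in the same libraries. Tcrg-C2 read 27.4, 29.3, 60.5, 33.3 and 40.2 CPM, so that both were lowest in libraries 1 and 2. The 6 gamma-delta T cell markers, 3 of them at 1 CPM or more on average and Il23r at 0, summed to 52.2 to 74.98 CPM in CD8 week 1 and 61.0 to 114.4 CPM in CD8 week 4 libraries. The part of NK cells or of any other cell type in these values was not tested. The T cell genes Cd3e, Cd3d, Cd3g and Trac summed to 1785 to 2375 CPM over the CD8 libraries.

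**Figure D3:**
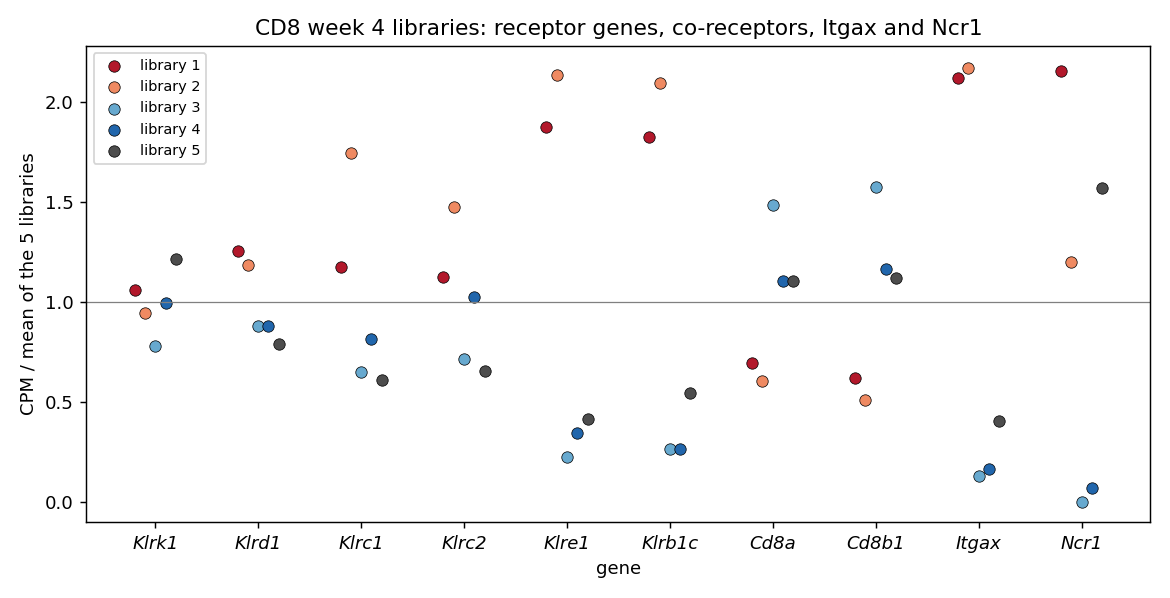
Level of each gene in each CD8 week 4 library, as CPM divided by the mean of the 5 libraries (vertical axis, linear), with a colour per library and a line at 1. Libraries 1 and 2 lie highest for Klrd1, Klrc1, Klrc2, Klre1, Klrb1c and Itgax and lowest for Cd8a and Cd8b1, while Klrk1 is highest in library 5.

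Klrb1f did not pass in CD8 cells (1.62 ± 0.366 and 0.975 ± 0.314 CPM, log2 change -0.72, SE 0.404, edgeR adjusted p 0.181). Klrg1 had at most 1 count in 17 libraries and failed the filter on low counts. It had 2 counts over the 5 CD8 week 1 libraries, 46 counts over the CD8 week 4 libraries, and 2 counts in each CD4 group, where 3 counts correspond to 0.0263 to 0.0317 CPM. The week 4 counts were 29, 9, 0, 0 and 8, so that libraries 1, 2 and 5, also the ones with Ncr1 above 2 CPM, carried all of them. The ratio of week 4 to week 1 was 19.3, with a 95% interval of 5.04 to 164.0 that covers counting error only and not the spread between libraries.

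Ratios of receptor chains were compared within CD8 cells, as the log2 ratio of counts per length in each library. Klrc1 to Klrk1, an inhibitory against an activating receptor, was 0.73 ± 0.27 at week 1 and 1.15 ± 0.69 at week 4 (SD, n = 5; two-sided exact permutation p = 0.262, adjusted over 3 ratios 0.393). Klrc1 to its partner Klrd1 was -2.45 ± 0.44 and -2.50 ± 0.39 (exact permutation p = 0.81, adjusted 0.81). Klre1 to Klrd1 was -5.51 ± 0.57 and -6.41 ± 1.22 (exact permutation p = 0.159, adjusted 0.393). The smallest p this design allows is 0.00794. The change in the ratio of Klrc1 to Klrk1 was 0.86 within libraries 1 to 3 and -0.24 within libraries 4 and 5, and the difference between these ranges was not tested.

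In CD4 cells the same question gave another count. Between week 1 and week 3, 4 of the 8 tested members rose, Klrd1, Klrc1, Klrk1 and Klri2, and 1 fell, Klrb1f, where 7.67% of all tested genes rose and 8.8% fell. Of the members, Klri2, Klrc2, Klre1 and Klrb1c passed the filter on low counts only through the CD8 libraries, where they were higher. Their place in the CD4 test thus depends on a filter over all groups. The median log2 change of the 8 was 1.65, against 0.01 over all tested genes. All of these changes took place at low levels, since only Klrd1 exceeded 4 CPM in any CD4 library.

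Klrd1 read 9.46, 7.66, 5.25, 4.88 and 2.58 CPM at week 1 and 10.4, 37.2, 15.8, 10.1 and 20.1 CPM at week 3. The ranges did not overlap, and library 2 was well above the rest (log2 change 1.65, SE 0.339, edgeR adjusted p 0.00479). Klrc1 read 0.166, 0.094, 0.20, 0.0403 and 0.125 CPM at week 1, from 1 to 4 counts a library, and 0.893, 0.747, 0.471, 0.774 and 0.549 CPM at week 3, from 11 to 20 counts. Every week 3 library was above every week 1 library (2.42, SE 0.484, edgeR adjusted p 0.00412), and the call was lost with limma-voom (2.37, adjusted p 0.12).

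Klrk1 read 1.12, 1.79, 0.30, 0.282 and 0.416 CPM at week 1 and 3.12, 3.34, 1.03, 1.09 and 1.52 CPM at week 3. Libraries 1 and 2 were the highest at both times, and the ranges overlapped (1.37, SE 0.42, edgeR adjusted p 0.0329). The call was lost without CD4 week 1 library 3, 4 or 5, without CD4 week 3 library 1 or 2, and when the fit held the CD4 libraries alone (1.36, edgeR adjusted p 0.133). Over those 5 omissions the change was 1.12 to 1.21 and the edgeR adjusted p 0.0586 to 0.0868. Klri2 had 1 count over the CD4 week 1 libraries and 13 over the CD4 week 3 libraries, a ratio of 13 with a 95% interval of 1.95 to 552.8 for counting error (edgeR adjusted p 0.0127).

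Klrb1f, at 1.33, 1.74, 0.749, 0.564 and 0.375 CPM at week 1 and 0.223, 0.483, 0.214, 0.137 and 0.718 CPM at week 3, moved the other way (-1.40, SE 0.442, edgeR adjusted p 0.0382). The ranges overlapped, and the call was lost without any 1 of CD4 week 1 libraries 1, 2 and 3 or CD4 week 3 libraries 1, 3 and 4 (-1.07 to -1.47, edgeR adjusted p 0.0567 to 0.114). Klrb1c had 0 to 4 counts a library at week 1 and 6 to 17 at week 3. Its libraries did not overlap, but its change did not pass (2.78, SE 1.09, edgeR adjusted p 0.085), whereas DESeq2 called it (2.88, adjusted p 0.00638), as did edgeR without CD8 week 4 libraries 1 and 2 (adjusted p 0.0301). Klrc2 (4 and 14 counts over the groups, 1.65, edgeR adjusted p 0.073) and Klre1 (0.121 ± 0.133 and 0.193 ± 0.0242 CPM, 0.71, edgeR adjusted p 0.625) did not pass.

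**Figure D4:**
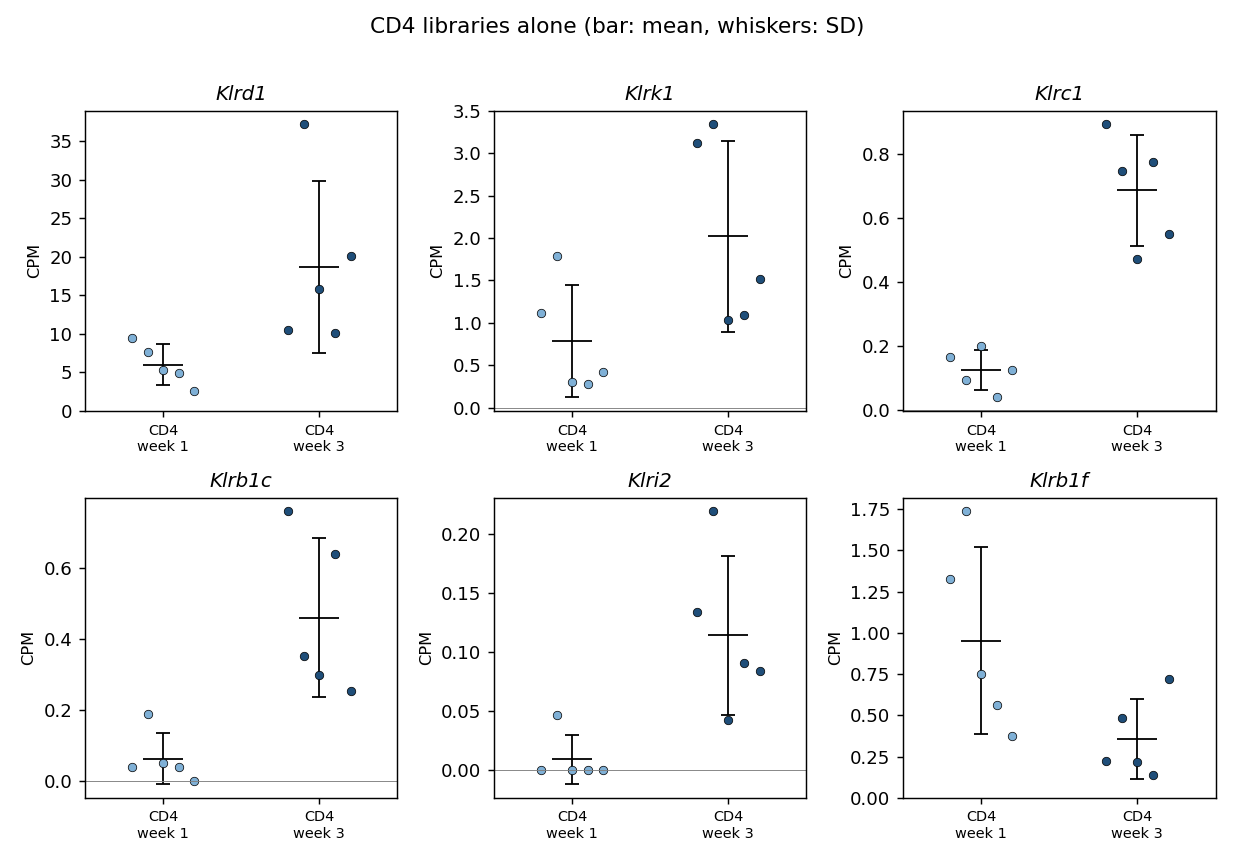
Levels of 6 receptor genes in the CD4 libraries alone, in CPM on linear axes, with a point per library, a bar for the mean and whiskers for the SD. Klrd1, Klrc1 and Klrb1c separate the times fully, while Klrk1, Klri2 and Klrb1f overlap.

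Since CD8 cells held far more of these transcripts, the levels in each CD4 library were set beside the CD8 co-receptor genes of the same library, each as a percent of the mean of the CD8 group of that stage. In CD4 week 3 libraries Cd8a stood at 0.0257% to 1.65% of the CD8 week 4 mean and Cd8b1 at 0.188% to 1.83%. Klrd1 stood at 3.78% to 14%, Klrk1 at 0.869% to 2.82% and Klrc1 at 0.606% to 1.15%. On this scale Klrd1 was above both co-receptor genes in all 5 libraries. Its highest library was library 2, and that of Cd8a and Cd8b1 was library 1. At week 1 Klrd1 was at 1.01% to 3.71%, Klrk1 at 0.179% to 1.14%, Cd8a at 0.00528% to 0.199% and Cd8b1 at 0.709% to 1.54%. Klrk1 and Klrc1 were below Cd8b1 in all 5 libraries at week 1, and at week 3 Klrc1 was below both co-receptor genes in library 1 (1.15% against 1.65% and 1.83%). Libraries 1 and 2 had the most Klrk1, Cd8a and Cd8b1 of the 5 at week 1. The part of CD8 cells in the levels of Klrd1, Klrk1 and Klrc1 was not tested. Without the 3 CD4 libraries highest in Cd8b1 (week 3 library 1 and week 1 libraries 1 and 2), the changes were 2.30 for Klrd1 (edgeR adjusted p 0.00463), 2.38 for Klrc1 (edgeR adjusted p 0.0389), 2.36 for Klrk1 (edgeR adjusted p 0.00624) and -0.52 for Klrb1f (edgeR adjusted p 0.494). This omission was chosen after the values were seen. Week 1 libraries 1 and 2 were also the highest of week 1 for Klrd1, Klrk1 and Klrb1f. Leaving them out by itself moves those changes upward, so these values cannot show what part CD8 cells had. The 9 NK markers summed to 3.29 to 9.07 CPM at week 1 and 9.24 to 25.9 CPM at week 3 in CD4 cells, with Itga2 the only one of them at 1 CPM or more on average, Ncr1 at 0.179 CPM or less and Klra8 at 0 in both groups. Of 6 gamma-delta T cell markers, Trdc, Tcrg-C1 and Tcrg-C2 were at 1 CPM or more on average in both CD4 groups and Il23r was at 0. Their sum was 9.07 to 36.5 CPM at week 1 and 45.2 to 88.2 CPM at week 3, without overlap. Most of it was Tcrg-C1 (5.03 to 28.1 and 37.9 to 69.4 CPM), while Trdc, at 3.57 to 5.52 and 5.19 to 10.7 CPM, overlapped between the times. The part of NK cells or gamma-delta T cells in the CD4 values was not tested.

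**Figure D5:**
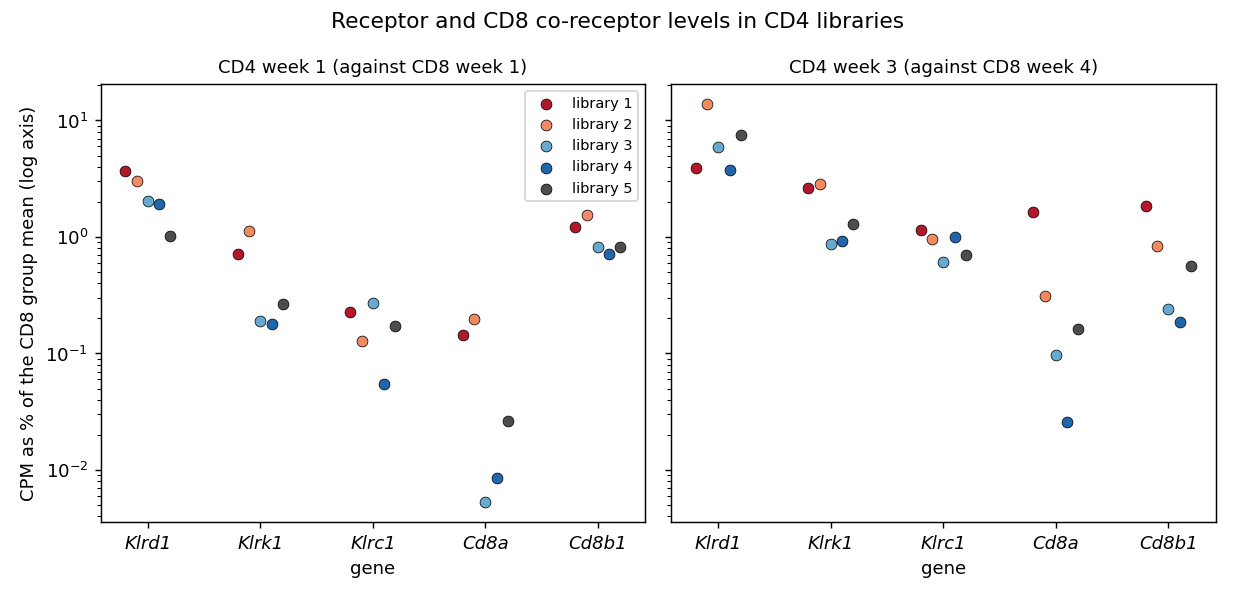
CPM of 3 receptor genes and of Cd8a and Cd8b1 in each CD4 library, as a percent of the mean of the CD8 group of the same stage (vertical axis, log scale), with a colour per library and week 1 on the left. At week 3 Klrd1 lies above both co-receptor genes in every library, as does Klrk1, while Klrc1 lies below both in library 1. At week 1 Klrk1 lies below Cd8b1 in every library.

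Whether the change in culture differed between CD8 and CD4 cells was tested directly, as the CD8 change minus the CD4 change. Of the 8 members 0 had a higher and 1 a lower change in CD8 cells, Klri2 (-4.05, SE 0.817, edgeR adjusted p 0.0335), where 0.248% of all tested genes had a higher and 0.406% a lower change. The size of the Klri2 value rests on 1 count in CD4 week 1 and depends on the prior count of the fit. Klri2 also passed the filter on low counts only through the CD8 libraries. The call was lost without any 1 of CD8 week 1 libraries 4 and 5, CD8 week 4 library 1, CD4 week 1 libraries 1, 3 and 4, and CD4 week 3 libraries 1 and 2 (-3.71 to -4.08, edgeR adjusted p 0.0514 to 0.0673). It was also lost without CD8 week 4 libraries 1, 2 and 5 (-3.78, edgeR adjusted p 0.09) and without the 3 CD4 libraries highest in Cd8b1 (-5.32, edgeR adjusted p 0.0599). For Klrc1 the difference was -2.34 (SE 0.547, edgeR adjusted p 0.0554), for Klrk1 -1.79 (SE 0.52, edgeR adjusted p 0.122) and for Klrd1 -1.59 (SE 0.461, edgeR adjusted p 0.122). These 3 passed with DESeq2 (adjusted p 0.00394, 0.0356 and 0.0301), and Klrk1 and Klrd1 passed without those 3 CD4 libraries (-2.77 and -2.23, edgeR adjusted p 0.0217 and 0.0442). That omission took out the highest CD4 week 1 libraries of Klrk1 and Klrd1.

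The other killer lectin-like receptor genes listed by name were mostly Ly49 genes, which encode receptors for classical class I molecules. The table holds 17 of those listed, not all of them in the cluster, and the filter on low counts kept 7. Of these 0 passed in CD4 cells, where 7.67% of all tested genes rose and 8.8% fell. In CD8 cells 4 fell and 0 rose, where 16.4% of all tested genes fell and 17.1% rose. Klra3 fell from 5.39 ± 1.14 to 1.24 ± 0.679 CPM (-2.11, edgeR adjusted p 0.00306), Klra6 from 5.53 ± 2.35 to 1.76 ± 1.6 CPM (-1.64, edgeR adjusted p 0.0206), Klra1 from 4.38 ± 1.06 to 1.68 ± 1.05 CPM (-1.37, edgeR adjusted p 0.017) and Klra7 from 13.9 ± 4.24 to 5.40 ± 4.82 CPM (-1.36, edgeR adjusted p 0.0307). The Klra6 call was lost without any 1 of CD8 week 1 libraries 1 and 2 and CD8 week 4 libraries 4 and 5 (-1.43 to -1.46, edgeR adjusted p 0.0508 to 0.0543). The Klra7 call was lost without any 1 of CD8 week 1 libraries 1 and 5 and CD8 week 4 libraries 3 to 5 (-1.10 to -1.37, edgeR adjusted p 0.0506 to 0.0854). It was also lost when the fit held the CD8 libraries alone (-1.38, edgeR adjusted p 0.0666). Within libraries 1 to 3 none of the 4 passed (edgeR adjusted p 0.0582 to 0.255). At week 4 Klra7 (13.3 and 6.08, against 1.14 to 4.48 CPM) and Klra6 (4.07 and 2.81, against 0.517 to 0.764 CPM) were highest in libraries 1 and 2. Klra1 and Klra3 were highest in libraries 1 and 5. Klra5, at 0.765 ± 0.284 and 1.16 ± 1.13 CPM, did not pass (0.57, edgeR adjusted p 0.43). The Ly49 pseudogene Klra13-ps was not on the list. It stood at 18.8 ± 6.44 and 16.8 ± 16.9 CPM in CD8 cells and did not pass (-0.17, edgeR adjusted p 0.847). All 7 tested genes of the list were higher in CD8 than in CD4 cells at both stages. Of all tested genes 19.1% were higher at week 1 and 17.7% in long-term culture. The 7 genes passed the filter only through the CD8 libraries, so their outcome was largely set by the filter. Ly49 genes are near-identical copies that vary between mouse strains, so their single values are uncertain.

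Among the adaptors, the DAP10 gene Hcst rose in both cell types, from 54.0 ± 12.8 to 106.1 ± 8.76 CPM in CD8 cells (0.97, edgeR adjusted p 8.46e-05) and from 54.3 ± 7.46 to 91.9 ± 10.8 CPM in CD4 cells (0.76, edgeR adjusted p 0.00191). Fcer1g (1.88 ± 1.16 and 2.87 ± 2.31 CPM in CD8 cells) and Cd247, the CD3 zeta chain gene (207.2 ± 35.9 and 236.6 ± 35.8 CPM), passed in neither. The DAP12 gene Tyrobp, the adaptor of NKG2C, failed the filter, at 0.41 ± 0.285 and 0.759 ± 0.538 CPM in CD8 cells.

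Of 17 tested genes that act downstream of activating receptors, 4 rose and 1 fell in CD8 cells, where 17.1% of all tested genes rose and 16.4% fell, and 1 rose and 2 fell in CD4 cells, where 7.67% rose and 8.8% fell. Vav2, a guanine nucleotide exchange factor, fell in both (-1.75 and -1.10, edgeR adjusted p 5.84e-06 and 0.000576). Its relative Vav1 (0.37, edgeR adjusted p 0.00119) and the kinase gene Fyn (0.44, edgeR adjusted p 0.00147) rose in CD8 cells. Fyn passed on the lower side in CD4 cells without CD4 week 1 or CD4 week 3 library 2 (-0.29 and -0.27, edgeR adjusted p 0.0446 and 0.0452). The phospholipase gene Plcg2 rose in CD4 cells (1.65, edgeR adjusted p 0.00481). Of 6 genes downstream of inhibitory receptors, 1 fell in CD8 and 2 in CD4 cells, where 16.4% and 8.8% of all tested genes fell. In both cell types 0 rose, where 17.1% and 7.67% rose. Ptpn6, the gene of the phosphatase SHP-1, fell in both cell types (-0.62 and -0.75, edgeR adjusted p 0.0038 and 0.00347). Csk fell in CD4 cells (-0.25, edgeR adjusted p 0.019), a call lost without CD4 week 1 library 3 or CD4 week 3 library 3 or 4 (edgeR adjusted p 0.0504 to 0.0616).

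Of 6 tested ligand genes 0 fell, where 16.4% of all tested genes fell in CD8 and 8.8% in CD4 cells. In each cell type 1 rose, where 17.1% of all tested genes rose in CD8 and 7.67% in CD4 cells. This was Cdh1, the gene of E-cadherin, a ligand of KLRG1, which went from 12.2 ± 5.07 to 72.7 ± 70.8 CPM in CD8 cells (2.58, edgeR adjusted p 0.0212) and from 1.68 ± 1.94 to 15.1 ± 10.2 CPM in CD4 cells (3.16, edgeR adjusted p 0.0219). The CD8 call was lost without CD8 week 1 library 1 or CD8 week 4 library 1 or 2 (2.03 to 2.48, edgeR adjusted p 0.0504 to 0.0641), and without both of the latter the change was 0.85 (edgeR adjusted p 0.426). It was also lost with limma-voom (1.97, adjusted p 0.0658) and with the title range as a term (2.24, edgeR adjusted p 0.0764). The CD4 call was lost with limma-voom (3.73, adjusted p 0.114), when the fit held the CD4 libraries alone (3.14, edgeR adjusted p 0.06) and without the 3 CD4 libraries highest in Cd8b1 (2.44, edgeR adjusted p 0.129). The Qa-1 gene H2-T23, whose product presents to CD94 with NKG2A or NKG2C, stood at 395.8 ± 43.4 and 472.4 ± 68.1 CPM in CD8 cells, and the NKG2D ligand gene Ulbp1 at 38.6 ± 9.51 and 32.6 ± 5.37 CPM, and neither passed.

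Of 16 regulators of NK and effector programmes, 3 fell and 0 rose in CD8 cells, where 16.4% of all tested genes fell and 17.1% rose, and 0 passed in CD4 cells, where 7.67% rose and 8.8% fell. Zeb2 fell from 7.0 ± 3.3 to 0.433 ± 0.357 CPM (-4.01, edgeR adjusted p 0.00108), Runx1 by 0.65 (edgeR adjusted p 0.00603) and Zfp683, the gene of Hobit, by 1.98 on the log2 scale (edgeR adjusted p 0.0351). The Zfp683 call was lost without any 1 of CD8 week 1 libraries 1, 3 and 4 and CD8 week 4 libraries 3 to 5 (edgeR adjusted p 0.0518 to 0.0836). In CD4 cells Zfp683 did not pass (18.5 ± 9.20 and 13.9 ± 19.3 CPM, -0.42, edgeR adjusted p 0.686), and without CD4 week 3 library 2, its highest at 48.0 CPM, it passed on the lower side (-1.79, edgeR adjusted p 0.0136). The T-box genes Eomes (190.8 ± 84.9 and 233.3 ± 36.7 CPM) and Tbx21 (75.8 ± 24.9 and 101.3 ± 16.7 CPM) did not pass. In long-term culture 4 of the 16 were higher in CD8 than in CD4 cells and 7 lower, where 17.7% of all tested genes were higher and 15% lower. Eomes was higher by 5.88 and Tbx21 by 2.11 (edgeR adjusted p 7.84e-05 and 3.84e-05). Runx1 was lower (-2.60, edgeR adjusted p 2.99e-09), and Runx3 did not pass (0.11, edgeR adjusted p 0.511). At week 1, 6 were higher and 4 lower, where 19.1% of all tested genes were higher and 19% lower. The week 1 differences were 5.13 for Eomes, 1.34 for Tbx21 and -2.11 for Runx1.

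Over the 20 libraries, the gene whose log2 level ran closest to that of Klrk1, out of 11091 compared, was Cd8a (Pearson r 0.989), followed by Wdr95 (0.976). Wdr95 and Gpr160 were closest to Klrc1 (0.988 and 0.984), Gpr160 and Frmd4a to Klrc2 (0.985 and 0.981), and Wdr95 and Dapk2 to Klrd1 (0.981 and 0.974). Gcnt1 and Snrpn were closest to Klre1 (0.979 and 0.972), and Gas7 and Cd244a, a receptor gene of NK and CD8 T cells, to Klrb1c (0.973 and 0.968). These values describe likeness over libraries of 4 groups, most of which is the difference between CD8 and CD4 cells.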

How the data were processed

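Libraries were made with a directional polyA kit, per the labels' protocols. The authors aligned reads with STAR to mm10, per the submitters' processing notes, and deposited raw counts per gene from featureCounts 1.6.3 on GENCODE M12 exons with the reverse strand setting, per the file headers. The recorded command sets neither the option for multi-mapping reads nor that for reads over several genes. Symbols matched 49412 of 49671 gene IDs. The file's merged exon length (another unit, in bases) gave CPM per kilobase. All 20 columns were used. The 20 libraries held 13264302 to 28342449 counts, and no 2 replicates agreed within sampling noise (chi-square per degree of freedom 6.31 to 154.3 over 40 pairs). Groups came from the labels.

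Counts were fitted with edgeR 4.0.16 (TMM, filterByExpr, glmQLFit and glmQLFTest in R 4.3.3, 4 group means over 20 libraries) on 13290 genes, with Benjamini-Hochberg adjustment over all of them. Alternatives were limma 3.58.1 (voom), DESeq2 1.42.0, 3 other scalings, 2 other filters, only the groups compared, the title range, and each library left out; 3 further omissions were chosen after seeing the data. Ratios used a pseudocount of 0.5, at least 10 counts per library and an exact permutation test (scipy), and count ratios a 95% Clopper-Pearson interval. The fit was tested on simulated data. The members and lists were chosen with earlier results of these data known. Named genes were all members, up to 4 called genes a list by smallest adjusted p, Ly49 genes at 1 CPM or more, and the 2 most alike genes per member. Other genes named beside these were chosen after their values were seen.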

Additional observations from a re-analysis of the deposited data

Results flagged for a closer look

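In CD4 week 1 libraries, Klre1 and Klrb1c had 1 library far above the other 4 by Dixon's test (critical value 0.71 for 5 libraries), with 0.35 CPM in library 3 and 0.188 CPM in library 2, from 7 and 4 counts. Klri2, at 0.047 CPM in library 2, also passed that value, but from 1 count against 0 in the other 4, where the gap is the whole range by construction, so this shows nothing about the library. Chance alone gives about 1 such library in 20 groups, and 36 groups were examined.

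The change of Klri2 in culture differed between the cell types in the test of the difference itself, with a CD8 change minus CD4 change of -4.05 (edgeR adjusted p 0.0335). Without any 1 of the 8 libraries named in the text above it did not pass. Klri2 passed the filter on low counts only through the CD8 libraries.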

How the results depend on the processing

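Of the CD8 culture comparison's count of 1 member lower, 2 were lower with limma-voom and with only the groups compared, 0 with the filter of 5 CPM in 5 libraries and in either title range alone, and 0 to 1 when each library was left out. Without CD8 week 4 libraries 1 and 2, or 1, 2 and 5, the count stayed at 1 but the member changed. Klri2 was lost (edgeR adjusted p 0.064 and 0.25) and Klre1 was called (0.00206 and 0.0079), in omissions chosen after the values were seen. Without a filter 1 member, Klrg1, was higher (3.90, edgeR adjusted p 0.0158). In CD4 cells 2 members were higher, instead of 4, with only the groups compared. There the count of 1 lower became 0 with no filter, with the 5 CPM filter, with only the groups compared, without CD8 week 4 libraries 1, 2 and 5, and without the 3 CD4 libraries highest in Cd8b1, and was 0 to 1 when each library was left out. In the test of the difference 1 member was lower, and 4 with DESeq2, 2 with the title range as a term, 0 with the 5 CPM filter, 2 without CD8 week 4 libraries 1 and 2, 2 without the 3 CD4 libraries (Klrk1 and Klrd1, while Klri2 was lost), and 0 to 2 when each library was left out. The 5 CPM filter removes low members from the test, and the fit of the CD4 libraries alone did not keep Klri2. The cause of the other shifts was not tested. Both comparisons of CD8 with CD4 cells kept their counts within 1.5 times. The change in the ratio of Klrc1 to Klrk1 was -0.24 in title range B alone, against 0.42 over all libraries. The change of Cdh1 in CD8 cells was -0.065 in title range B alone, against 2.58. Over all genes, the calls ranged from 1067 to 5351 (CD8, 4454 reported) and from 1090 to 3650 (CD4, 2189 reported). Depth limits the CD4 values of Klrc1, Klrc2, Klri2, Klrb1c and Klre1, which rest on 20 counts a library or fewer.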

Other observations

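Genes of the lectin cluster outside the listed killer receptors were also measured. Of 25 tested genes between chr6:128609227 and 131247362, 10 are not among the killer lectin-like receptor genes listed. They include the Ly49 pseudogene Klra13-ps given above. Of these 10, 3 fell (Gm44067, BC035044 and BC064078) and 0 rose in CD8 cells, where 16.4% of all tested genes fell and 17.1% rose. In CD4 cells 2 fell (Clec2i and BC064078) and 0 rose, where 8.8% fell and 7.67% rose. Clec2d, the gene of a ligand of an NKR-P1 receptor, stood at 98.0 ± 20.5 and 126.1 ± 14.3 CPM in CD8 cells and at 131.0 ± 44.3 and 133.6 ± 30.2 CPM in CD4 cells and passed in neither. Clec2i, the gene of another such ligand, stood at 84.2 ± 11.5 and 83.0 ± 6.15 CPM in CD8 cells and fell in CD4 cells from 75.4 ± 19.8 to 42.7 ± 17.5 CPM (log2 change -0.82, edgeR adjusted p 0.0212; 0.0625 without CD4 week 3 library 3). Whether that change differed between the cell types did not pass the test (0.80, edgeR adjusted p 0.313). BC035044, an uncharacterised gene next to Clec2i, fell in CD8 cells from 12.3 to 3.81 CPM (-1.70, edgeR adjusted p 0.00595) and was at 0.132 and 0.0447 CPM in CD4 cells.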
